A study of Mus musculus with 78 samples.

Results

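The subcortical maternal complex is a protein assembly that the egg stores beneath its surface and passes on to the early embryo. The RNA of 8 genes of this complex and its known partners was followed in single blastomeres of mouse embryos, namely Nlrp5, Ooep, Tle6, Khdc3, Padi6, Zbed3, Nlrp2 and Nlrp4f. These genes were chosen by name, and each was found by its Entrez identifier. All 8 are among the 15218 genes listed for the 4-cell stage, the 15342 listed for the 8-cell stage and the 13604 listed for both.

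The embryos came from a cross of mice homozygous for the Brainbow-2.1 cassette, which marks a cell and its descendants by a fluorescent protein after recombination, with mice homozygous for a tamoxifen-inducible Cre recombinase. Every embryo, of either stage, therefore carried both transgenes. Embryos were collected as 2-cell embryos at 46 hours post injection of the second hormone. This is the time in the study's methods, and its results text gives an earlier one. The embryos were exposed to 4-hydroxytamoxifen for 2 hours and were grown in KSOM medium to the stage at which they were taken apart. Single blastomeres were sequenced with Smart-seq2. The labels name 36 blastomeres of 9 embryos at the 4-cell stage and 31 blastomeres of 4 embryos at the 8-cell stage. They give no lineage for 12 of the 36, which are all the blastomeres of embryos E7 to E9, and for 5 of the 31. The study limited its analyses to resolved blastomeres. The gene tables hold 24 and 26 blastomeres, as many as have a lineage in the labels. The values of the 4-cell stage were thus taken to come from embryos E1 to E6, fewer than 9. No column has a name that matches one embryo or lineage in the labels. Each stage was therefore treated as 1 sample, nothing was tested, and every difference is a description of these blastomeres.

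Values are FPKM, fragment counts scaled to the length of the transcript and the size of the library, which give a share of a library and not a number of molecules in a cell. The library size behind the FPKM, in units of 1000000 fragments, was estimated at 6.87 to 16.9 for a 4-cell blastomere and 2.34 to 21.7 for an 8-cell blastomere. Blastomeres had 3009 to 8276 genes above FPKM 1 at the 4-cell stage, with a median of 7155, and 3548 to 8078 at the 8-cell stage, with a median of 6773. A few had far fewer genes than the rest. The 4 and 3 blastomeres that had fewer than 0.75 times the median of their stage are hereafter the gene-poor blastomeres, and values without them are given beside several results. The identity of the cells was checked on Dppa3, a gene of oocytes and early embryos, whose median was 3658 FPKM at the 4-cell stage and 3260 FPKM at the 8-cell stage. None of the 5 blood markers was listed. Of the 8 markers of cumulus and granulosa cells, 3 were listed for the 4-cell and 2 for the 8-cell stage. These summed to at most 3.06 FPKM in any 4-cell and 1.66 FPKM in any 8-cell blastomere. Of 4 sperm markers, Prm1 and Prm2 were listed, with medians of 0 at both stages. Prm1 reached 8.79 FPKM at the 4-cell and 10.3 FPKM at the 8-cell stage, and Prm2 reached 6.00 and 23.3 FPKM.

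As background, NLRP5, OOEP, TLE6 and KHDC3 form the core of the complex, and PADI6 is needed for the cytoplasmic lattices with which the complex is associated. Their RNAs are made and stored while the oocyte grows, and embryos of mothers that lack one of several of these genes stop early in cleavage. Much of the RNA stored by the oocyte is degraded around the time the embryo's own genome becomes active.

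Smart-seq2 primes reverse transcription on the poly(A) tail, so the 3′ ends of the members are given first. The windows below are 30 bases long, come from the RefSeq transcripts of GRCm38.p6, and are written in the sense of the transcript with the hexamer of the poly(A) signal in capitals. The signal AATAAA lay in the last 50 bases of 6 of the 8 members, against 65.03% of the 10013 expressed genes with a transcript to read.
Khdc3, chr9:73104409-73104438, plus strand: ttaaagtattctAATAAAaaaaaaattgca
Padi6, chr4:140727361-140727390, minus strand: tgccatagagccAATAAAgcatggtattct
Nlrp5, chr7:23441887-23441916, plus strand: tagcaagaatgaAATAAAcacagcatttag
Tle6, chr10:81590907-81590936, minus strand: cgagttgcgtgtAATAAAacaattgaaatg
Zbed3, chr13:95337809-95337838, plus strand: ttttttttttttAATAAActtttatttatc
Nlrp2, chr7:5298552-5298581, minus strand: ggtatattggggAATAAAagggaaaacatg
Nlrp4f, chr13:65177122-65177151, minus strand: tttgtgttttatATTAAAgaatagtagtca
Nlrp4f held the variant ATTAAA in place of AATAAA, and neither hexamer lay in the last 50 bases of the Ooep transcript. At least 1 of these hexamers was present in 80.0% of the expressed genes and in 7 of the 8 members. The letters TTTTAT or TTTTAAT, which match the cytoplasmic polyadenylation element of stored oocyte RNAs, lay in the last 100 bases of Zbed3 and Nlrp4f and of 19.1% of the expressed genes. They were searched on the sense strand, and a match is a description of the sequence only.

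The promoters were read for the E-box letters CANNTG, where N is any base. The motif is bound by FIGLA, a transcription factor of the growing oocyte. It occurred in 72.3% of 32851 RefSeq promoter windows of 300 bases and in at least 1 window of 7 of the 8 members, with Nlrp2 as the exception. In Khdc3, Ooep and Padi6 an E-box began 78 bases before the annotated start, a position at which 0.484% of all windows held one. The windows of these genes follow, in the sense of the gene and with the E-box in capitals.
Khdc3, chr9:73102308-73102337, plus strand: tctcccccacccCAGGTGcagccagtgagg
Ooep, chr9:78378649-78378678, minus strand: acccagcctaccCACTTGcgcggtgcgcgc
Padi6, chr4:140742704-140742733, minus strand: ctcctccaggctCACCTGtgaacccttaac
The shared position was noticed while the sequences were read, and no test was made of it. The E-boxes of Khdc3 and Padi6 are the same letters, CACCTG, on opposite strands, and this hexamer was present on either strand in 20.2% of all windows. Figla itself had a median of 0 FPKM at both stages and was above FPKM 1 in 1 blastomere of each.

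Khdc3 encodes a KH-domain protein, also called FILIA, that in addition to its place in the complex is known for a role in genome stability. Its gene lies at chr9:73102398-73104443 on the plus strand and has 3 exons. It had the highest level of the members, at the 4-cell stage from 0 to 600 FPKM with a median of 101, and at the 8-cell stage from 5.92 to 975 FPKM with a median of 443. At the 4-cell stage 3 of 24 blastomeres were listed at 0 and 12 were above 100 FPKM, whereas at the 8-cell stage all 26 were above FPKM 1 and 22 were above 100. The median was 4.39-fold higher at the 8-cell stage and the mean 2.10-fold higher, and 22 of the 26 blastomeres of the 8-cell stage lay above the median of the 4-cell stage. The ranges overlapped. The size of the difference depends on which 4-cell blastomeres are taken, since the 12 columns deposited first had a median of 359 FPKM and the 12 deposited last one of 32.2 FPKM, against 443 FPKM at the 8-cell stage. The 3 blastomeres without Khdc3 had 3009, 3699 and 5336 genes above FPKM 1 and were thus among the 4 gene-poor ones. Without the gene-poor blastomeres the medians were 198 and 428 FPKM, a 2.16-fold difference, and the means differed by 1.77-fold.

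Padi6 encodes a member of the peptidylarginine deiminase family that is largely confined to oocytes and early embryos. Its gene lies at chr4:140727355-140742643 on the minus strand and has 16 exons. It ranged from 0 to 108 FPKM at the 4-cell stage with a median of 24.6, and from 0 to 59.4 FPKM at the 8-cell stage with a median of 30.1. The medians differed by less than 1.5-fold, with the 8-cell stage 1.23-fold higher, whereas the means of 31.6 and 26.6 FPKM had the opposite order. Without the gene-poor blastomeres, 1 of which held the highest Padi6 value, the means were 28.3 and 28.6 FPKM. By median Padi6 differed least of the 5 members with a stage median above FPKM 1. It was listed at 0 in 1 of 24 and in 4 of 26 blastomeres, and these 4 had 3548 to 5248 genes above FPKM 1, against a median of 6822 in the others of the 8-cell stage.

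Zbed3 encodes a zinc finger protein that takes part in the placing of the spindle for symmetric cleavage. Its gene lies at chr13:95323605-95337842 on the plus strand and has 4 exons. Of their bases 17.2% have a copy of at least 98% identity elsewhere in the genome, where some reads may not align uniquely. Whether reads were lost there was not measured. Its level was 0 to 45.1 FPKM with a median of 11.1 at the 4-cell stage, and 0 to 44.8 FPKM with a median of 3.28 at the 8-cell stage. The median was 3.40-fold lower at the 8-cell stage and the mean 2.01-fold lower, from 13.6 to 6.76 FPKM, so that Zbed3 was the member at least 2-fold lower by median and by mean. Only 4 of the 26 blastomeres of the 8-cell stage were above the median of the 4-cell stage, but the highest values of both stages were close to each other. Without the gene-poor blastomeres the median was 3.02-fold lower and the mean 1.63-fold lower, under the 2-fold threshold. Against the 12 4-cell columns deposited first, with a median of 6.11 FPKM, the 8-cell median was also less than 2-fold lower.

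Nlrp5 encodes MATER, a NOD-like receptor protein on which the assembly of the core depends. Its gene lies at chr7:23385889-23441923 on the plus strand and has 16 exons, with close copies elsewhere of 4.83% of its bases. It was measured at 0 to 31.1 FPKM with a median of 5.06 at the 4-cell stage, and at 0 to 24.7 FPKM with a median of 0.122 at the 8-cell stage. The number of blastomeres above FPKM 1 was 17 of 24 and then 9 of 26. The median was 41.7-fold lower at the 8-cell stage, while the mean went from 7.02 to 3.63 FPKM, 1.94-fold lower. Without the gene-poor blastomeres, 1 of which held the highest 4-cell value, the means were 5.95 and 3.46 FPKM. The fold of the medians depends on which 8-cell blastomeres are taken. The 13 columns of the 8-cell stage deposited first had a median of 0.637 FPKM and the 13 deposited last one of 0.0331 FPKM. Most 8-cell blastomeres were thus near 0 and a few held as much as the 4-cell blastomeres, with the 4 highest holding 75.9% of the summed level, against 50.2% at the 4-cell stage.

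Tle6 encodes a Groucho-related protein of the core complex. Its gene lies at chr10:81590904-81600900 on the minus strand and has 16 exons. The levels ran from 0 to 18.9 FPKM with a median of 2.69 at the 4-cell stage, and from 0 to 27.1 FPKM with a median of 0.0285 at the 8-cell stage. The latter median stands for about 1 fragment in a blastomere, and no fold is given for it. Tle6 was above FPKM 1 in 15 of 24 and in 11 of 26 blastomeres, and its means of 5.39 and 5.09 FPKM differed by 1.06-fold. The smaller share and the lower median at the 8-cell stage depend on which 4-cell blastomeres are taken, since the 12 columns deposited first had a median of 9.59 FPKM with 11 above FPKM 1, and the 12 deposited last a median of 0 with 4 above FPKM 1. Against the latter the 8-cell stage was not lower.

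Ooep encodes FLOPED, the smaller KH-domain partner of KHDC3. Its gene lies at chr9:78376903-78378588 on the minus strand and has 3 exons. It was found at 0 to 10.9 FPKM with a median of 0.645 at the 4-cell stage, and at 0 to 13.5 FPKM with a median of 0 at the 8-cell stage. It was above FPKM 1 in 11 of 24 and in 9 of 26 blastomeres, and its means were 2.72 and 2.27 FPKM. A count of 0 still allows about 3 fragments, which for Ooep correspond to 0.186 FPKM in the median 4-cell blastomere and 0.144 FPKM in the median 8-cell blastomere. These limits bound what a 0 may hide and are no lower end of detection, since 1 8-cell blastomere had Ooep at 0.0477 FPKM, about 1 fragment. At either stage Ooep was above FPKM 1 in fewer than 0.5 of the blastomeres. Without the gene-poor blastomeres its 4-cell median was 2.25 FPKM, and that of the 8-cell stage was 0.

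Nlrp4f and Nlrp2 encode further NOD-like receptor proteins of oocytes that are associated with the complex. Nlrp4f lies at chr13:65177111-65205716 and Nlrp2 at chr7:5298547-5351035, both on the minus strand. Nlrp4f was above FPKM 1 in 7 of 24 and in 4 of 26 blastomeres, and its median was 0.00906 FPKM and then 0. Its mean of 3.27 FPKM at the 4-cell stage rested on 1 blastomere at 57.6 FPKM, about 2699 fragments, next to which the highest was 4.03 FPKM. Without the highest blastomere of each stage the means were 0.907 and 1.37 FPKM, in the opposite order to those with it, which were 3.27 and 2.01 FPKM. Both of these blastomeres were gene-poor, with 3699 and 3548 genes above FPKM 1. Without all gene-poor blastomeres the means of Nlrp4f were 1.04 and 1.49 FPKM. Nlrp2 had the lowest level of the members, with at most 3.89 FPKM at the 4-cell stage and 0.954 at the 8-cell stage. It passed FPKM 1 in 2 of 24 blastomeres and in 0 of 26. Such a count would allow a share of up to 11.5% if the blastomeres were independent, which blastomeres of the same embryos are not.

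**Figure D1:**
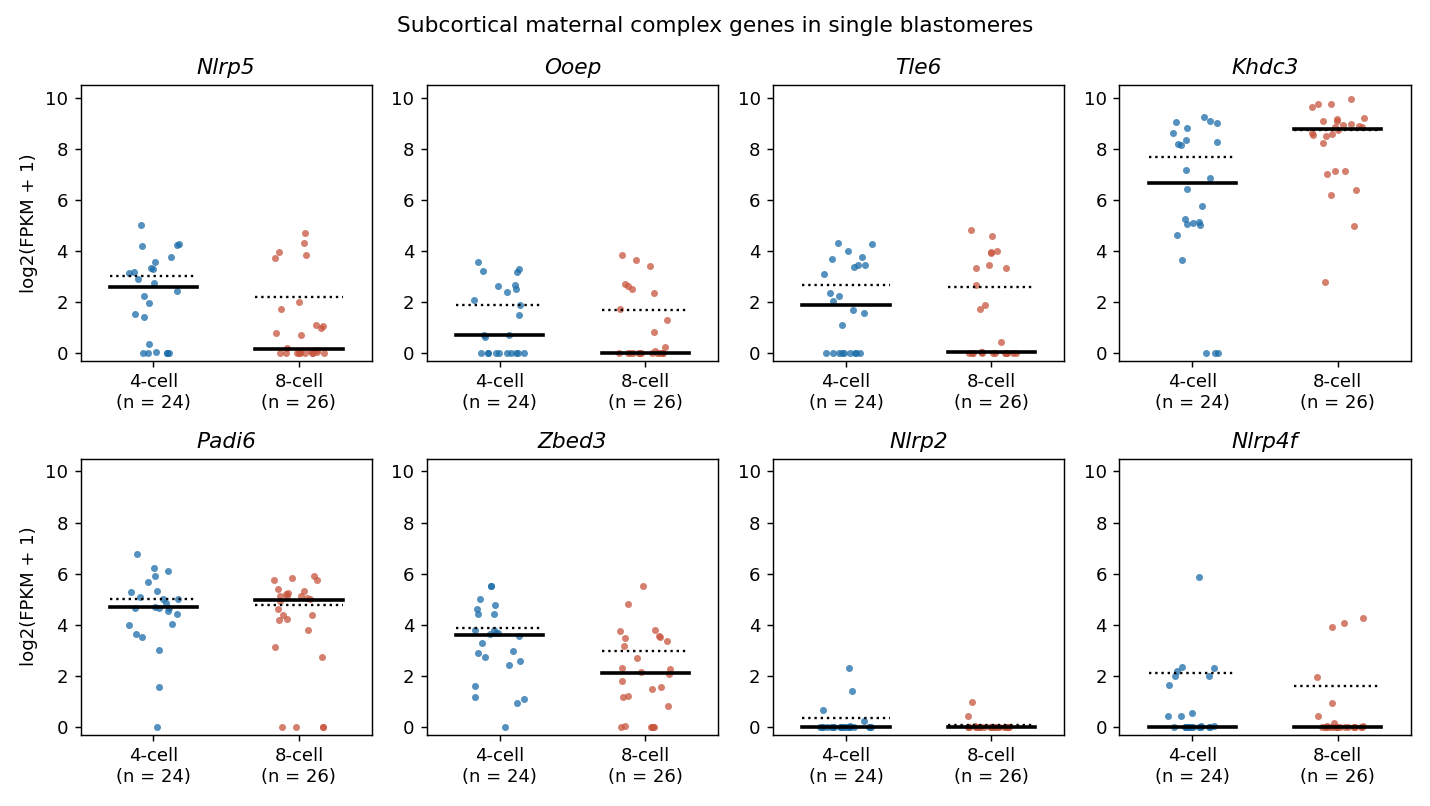
Level of each member in every blastomere, as log2(FPKM + 1), at the 4-cell stage (n = 24) and the 8-cell stage (n = 26); points are blastomeres, solid bars stage medians and dotted bars the log2(FPKM + 1) of stage means. Khdc3 has its median at 101 FPKM and then at 443 FPKM, while the medians of Nlrp5, Tle6 and Ooep lie near 0 at the 8-cell stage below a few high blastomeres.

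The members did not occur together in every blastomere. From 2 to 7 of the 8 were above FPKM 1 in a 4-cell blastomere, with a median of 5, and from 1 to 6 in an 8-cell blastomere, with a median of 4. No blastomere of either stage had all 8 above FPKM 1. The summed level of the 8 was dominated by Khdc3, which held 75.9% of the sum of the stage means at the 4-cell stage and 90.1% at the 8-cell stage. Padi6 held 11.9% and 5.67% of it, and Zbed3 5.13% and 1.44%. Within a single blastomere the share of Khdc3 ran from 0% to 93.6% at the 4-cell stage, with a median of 57.8%, and from 6.59% to 100% at the 8-cell stage, with a median of 91.9%. The blastomere at 100% had Khdc3 at 792 FPKM and the other members at 0, and it was gene-poor, with 4263 genes above FPKM 1.

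**Figure D2:**
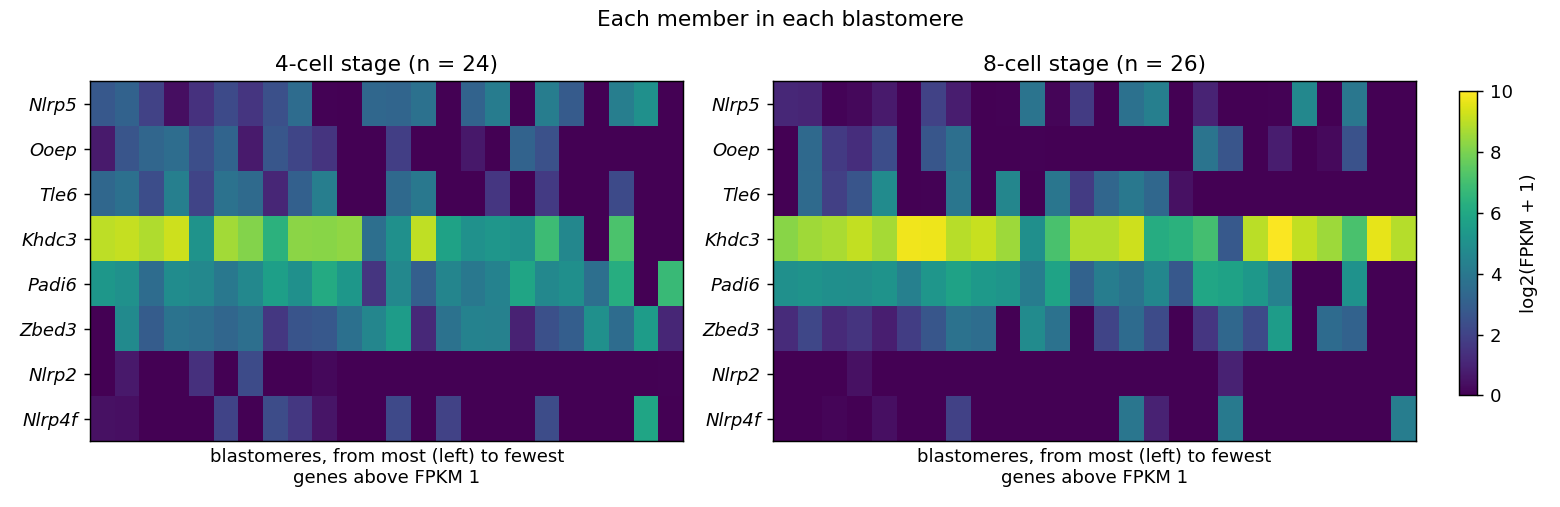
Each member (rows) in each blastomere (columns) as log2(FPKM + 1), with blastomeres placed from the most to the fewest genes above FPKM 1 within the 4-cell (n = 24) and the 8-cell stage (n = 26). Khdc3 and Padi6 fill most columns, whereas Nlrp5, Ooep and Tle6 appear in some blastomeres and are at 0 in others, and the 3 columns without Khdc3 lie at the right of the 4-cell panel.

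To set the members against the transcriptome, a gene was called lower or higher when its stage medians differed by at least 2-fold, among the 7131 genes with a median above FPKM 1 in at least 1 stage. The tables of the 2 stages were deposited separately, so these calls compare shares of separately scaled libraries. By this rule 21.1% of all genes were lower and 12.2% were higher at the 8-cell stage. Of the members 5 could be called, and 3 of them were lower (Nlrp5, Tle6 and Zbed3) and 1 was higher (Khdc3), with Padi6 between the thresholds. Ooep, Nlrp2 and Nlrp4f did not reach a median of FPKM 1 in either stage. On the log2(FPKM+1) scale the differences of the medians, 8-cell minus 4-cell, were -2.43 for Nlrp5, -1.83 for Tle6, -1.50 for Zbed3, 0.28 for Padi6 and 2.14 for Khdc3. With a pseudocount of 0.1 in place of 1 they were -4.55 for Nlrp5 and -4.42 for Tle6, whose 8-cell medians are near 0. The median over the 5 was -1.50, and that over all 7131 genes was -0.11. The change of Khdc3 was higher than that of 97.8% of all genes, and the change of Nlrp5 was lower than that of all but 4.39%.

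By stage means the picture was a different one. Among the 10109 genes with a mean above FPKM 1 in at least 1 stage, 16.6% were at least 2-fold lower and 12.5% at least 2-fold higher. Of the 7 members in this set, Zbed3 was lower and Khdc3 higher, and Nlrp5, Ooep, Tle6, Padi6 and Nlrp4f lay within 2-fold. The share of blastomeres above FPKM 1 was smaller by at least 20 percentage points in Nlrp5, by 36.2 points, and in Tle6, by 20.2 points, as it was in 13% of these genes. No member had a share that was larger by 20 points, as 5.22% of these genes had. The share of Khdc3 was larger by 12.5 points, the most that was possible from 87.5% at the 4-cell stage. Padi6 and Zbed3, with 95.8% and 91.7% at the 4-cell stage, could not rise by 20 points either, so the measure cannot decide for these members. Among the blastomeres above FPKM 1 alone, the median of Nlrp5 was 8.12 FPKM at the 4-cell and 12.4 FPKM at the 8-cell stage, that of Tle6 9.24 and 9.87 FPKM, and that of Ooep 5.21 and 5.17 FPKM. Zbed3 had 11.6 and 5.44 FPKM in its blastomeres above FPKM 1. These medians leave out low values by construction, and Nlrp5 was above 0 in 19 of 24 and in 18 of 26 blastomeres, so that 8-cell blastomeres with a value between 0 and FPKM 1 are left out here. The range of the 8-cell values overlapped the range of the 4-cell values in each of the 8 members, and 0.0% of all genes had separate ranges in either direction. The use of means and of shares was chosen after the values were seen.

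**Figure D3:**
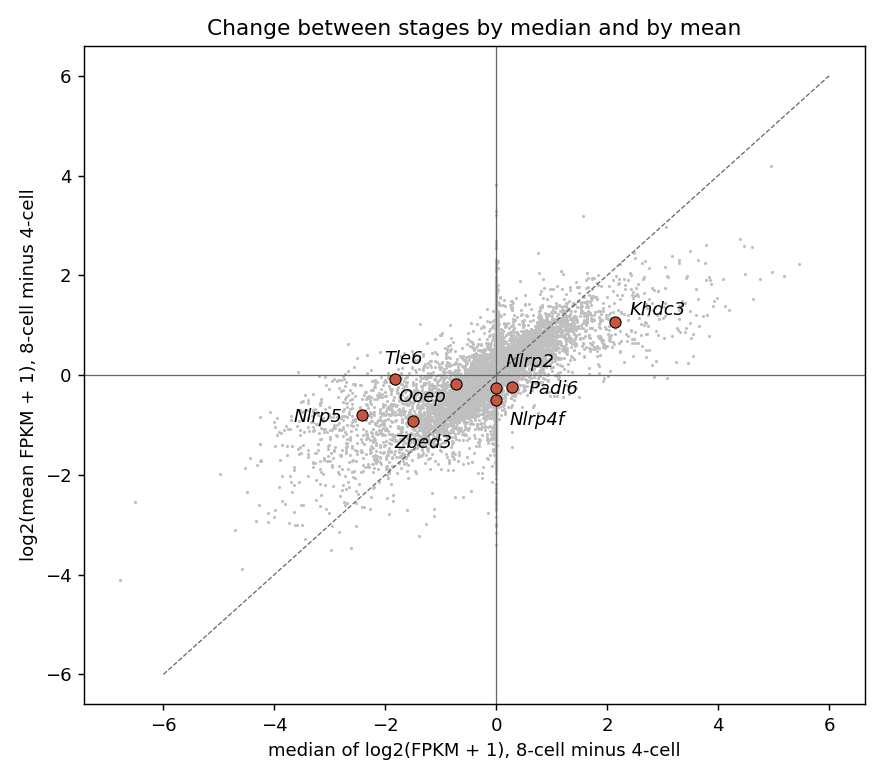
Difference between stages, 8-cell minus 4-cell, of the median of log2(FPKM + 1) (x axis) and of log2(mean FPKM + 1) (y axis), for the members (red) and for all genes with a stage mean above FPKM 1 (gray); the dashed line marks equal differences. Tle6 lies far to the left at -1.83 but near 0 on the y axis, Zbed3 is low on both axes, and Khdc3 is high on both.

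Evenness between blastomeres was described by the SD of log2(FPKM+1) over the blastomeres of a stage. Khdc3 was the member furthest from genes of its own level. Its SD was 2.91 at the 4-cell stage and 1.64 at the 8-cell stage, whereas the median SD of the genes within 2-fold of its stage median was 1.38 over 1294 genes and 0.446 over 350 genes. It exceeded 99.3% and 99.1% of those genes. The SD is taken over all blastomeres of a stage, so it does not show how far cells of 1 embryo differ. It also takes in the step between the 12 4-cell columns deposited first and the 12 deposited last, with Khdc3 medians of 359 and 32.2 FPKM. The first and the last 13 columns of the 8-cell stage had medians of 458 and 371 FPKM. Without the gene-poor blastomeres the SD of Khdc3 was 1.87 and 1.70, and its ratio to the median SD of genes of like level went from 2.11 to 3.57 at the 4-cell stage. The ratio was also moved by 1 library, since it was 3.46 without the 4-cell blastomere that had 3009 genes above FPKM 1.

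The other members that could be compared by their stage median, Padi6 and Zbed3 at both stages and Nlrp5 and Tle6 at the 4-cell stage, had an SD nearer to that of genes of like level. Padi6 had an SD of 1.47 at the 4-cell stage, where the genes of like level had a median SD of 1.66, and of 1.93 at the 8-cell stage, where these had 1.59. For Zbed3 the SD was 1.48 and 1.60, against 1.68 and 1.59 in genes of like level. Nlrp5 and Tle6 at the 4-cell stage had an SD of 1.65 against 1.59 and of 1.67 against 1.49. These SDs lay between the 31.3 and the 76.0 percentile of their comparison genes. By the coefficient of variation of FPKM, Zbed3 at the 8-cell stage lay at the 89.1 percentile of those genes, and Nlrp4f at the 4-cell stage, where 1 blastomere held most of it, at the 97.3 percentile of genes of like stage mean. Of all genes with a mean above FPKM 1, 78.5% at the 4-cell stage and 74.4% at the 8-cell stage were at 0 in at least 1 blastomere.

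**Figure D4:**
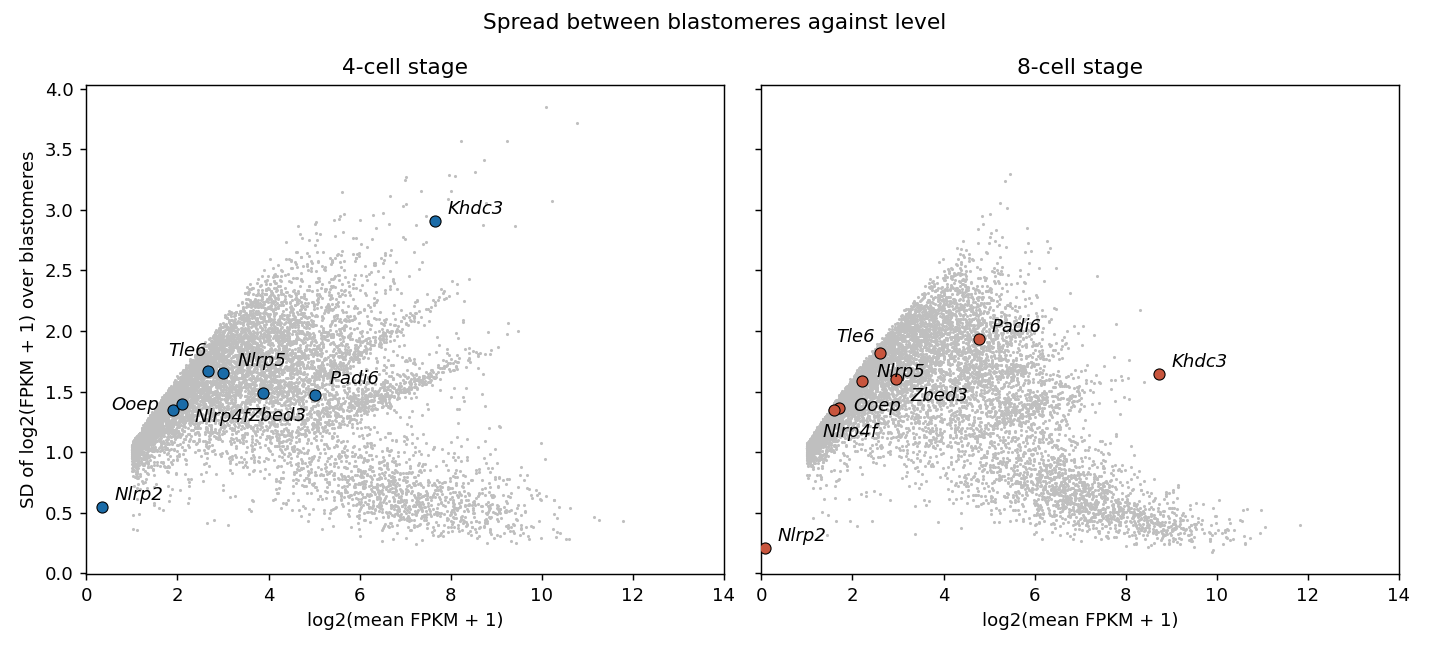
SD of log2(FPKM + 1) over the blastomeres of a stage (y axis) against log2(mean FPKM + 1) (x axis), for the members (colored) and for all genes listed in both tables with a stage mean above FPKM 1 (gray), at the 4-cell and the 8-cell stage. Khdc3, with SDs of 2.91 and 1.64, lies above most genes of its level, and the other members lie within the gray points or, for Nlrp2, below the level at which genes are drawn.

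Pairs of members were compared by Spearman's rho over the blastomeres of a stage, which share embryos and differ in depth. At the 4-cell stage Khdc3 and Tle6 had a rho of 0.76, Ooep and Tle6 of 0.52 and Khdc3 and Ooep of 0.49 (n = 24 blastomeres). These were the pairs with the highest values among the 28 pairs of members at this stage. At the 8-cell stage the same pairs had a rho of -0.08, 0.06 and -0.16 (n = 26). Because the pairs are the highest of 1 stage, their lower values at the other cannot be read as a change. The highest pair of the 8-cell stage was Ooep and Padi6, with a rho of 0.48, against 0.17 at the 4-cell stage. The difference between the stages was not tested. Within the 12 columns deposited first and the 12 deposited last at the 4-cell stage, the rho of Khdc3 and Tle6 was 0.55 and 0.52, that of Ooep and Tle6 0.14 and 0.29, and that of Khdc3 and Ooep 0.18 and 0.23. The values of all 3 pairs were thus lower within these columns than over all 24 blastomeres. Within the first and the last 13 columns of the 8-cell stage, the rho of Khdc3 and Tle6 was -0.04 and -0.11, that of Ooep and Tle6 0.17 and -0.05, and that of Khdc3 and Ooep -0.68 and -0.07. The levels of these 3 core genes also varied with the number of genes above FPKM 1 in the blastomere, with a rho of 0.73 for Khdc3, 0.63 for Tle6 and 0.64 for Ooep at the 4-cell stage, and of 0.05, 0.45 and 0.20 at the 8-cell stage. Without the gene-poor blastomeres the 4-cell values for the pairs were 0.69, 0.41 and 0.39. The part of depth in these relations was not tested.

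Nlrp5, the partner on which the core depends, did not follow the other 3, with a rho of 0.00 with Khdc3, 0.14 with Tle6 and -0.15 with Ooep at the 4-cell stage. Padi6 and Zbed3 had a rho of -0.52 at the 4-cell stage, the lowest of the 28 pairs there, and of 0.38 at the 8-cell stage. Over the 28 pairs of members the median rho was 0.07 at the 4-cell stage and 0.06 at the 8-cell stage, next to 0.05 and 0.02 over all pairs of genes with a median above FPKM 1. These sets are unlike, since the pairs of members include members with a stage median below FPKM 1.

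**Figure D5:**
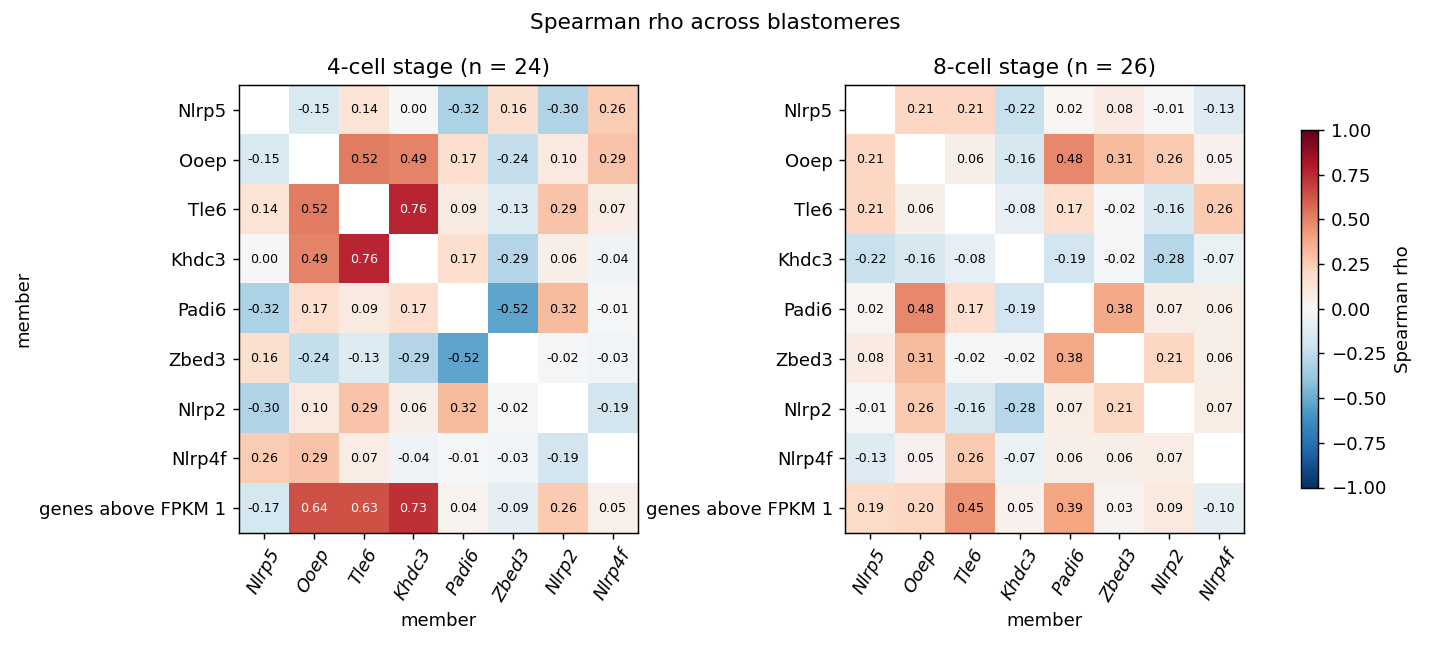
Spearman's rho between members, and between each member and the number of genes above FPKM 1 (bottom row), over the blastomeres of the 4-cell (n = 24) and the 8-cell stage (n = 26). Ooep, Tle6 and Khdc3 have values of 0.49 to 0.76 at the 4-cell stage, the highest of the 28 pairs there. The same pairs have values of -0.16 to 0.06 at the 8-cell stage. The difference between the stages was not tested. At the 4-cell stage the same genes have the highest values in the bottom row.

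The order of the deposited columns, which their names do not explain, ran parallel to Khdc3 at the 4-cell stage. The 12 columns that come first held 85.8 to 600 FPKM, with a median of 359, and the 12 that come last held 0 to 142 FPKM, with a median of 32.2. Tle6 was above FPKM 1 in 11 of the first 12 and in 4 of the last 12, and Ooep in 8 and in 3. Zbed3 had the opposite step, with medians of 6.11 and 16.5 FPKM, and the former is less than 2-fold above the 3.28 FPKM of the 8-cell stage. The order was not used to assign blastomeres to embryos or lineages. Nlrp5 had medians of 4.04 and 7.25 FPKM, with 9 and 8 blastomeres above FPKM 1, and Padi6 had medians of 29.7 and 23.3 FPKM. Zbed3 was above FPKM 1 in 11 of 12 in both. Genes above FPKM 1 numbered 6675 to 8276 in the columns that come first and 3009 to 7912 in those that come last.

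The relatives of the members gave a mixed picture. Of the oocyte Nlrp genes, 9 of 10 were listed in both tables and 3 had a median above FPKM 1 in at least 1 stage, all of which were lower by median at the 8-cell stage. Nlrp9c had a median of 8.25 FPKM and then of 0 and was above FPKM 1 in 23 of 24 and 5 of 26 blastomeres. Nlrp14 went from a median of 3.12 FPKM to 0, and Nlrp4c from 3.80 to 0.499 FPKM. By mean Nlrp9c was 10.4-fold and Nlrp4c 2.09-fold lower, whereas Nlrp14, with 6.56 and 5.91 FPKM, differed by 1.11-fold. Nlrp4a, Nlrp4b, Nlrp4e, Nlrp4g, Nlrp9a and Nlrp9b had medians of 0 at both stages. Of these, Nlrp4e had a higher mean at the 8-cell stage, 0.31 and then 1.63 FPKM, with 1 of 24 and 4 of 26 blastomeres above FPKM 1, while Nlrp4a had a lower one, 4.81 and then 0.854 FPKM.

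Among the 4 relatives of Khdc3 and Ooep with a KH domain, 2 were lower by median and none was higher. Khdc1b had a median of 75.7 FPKM at the 4-cell stage and 16.02 at the 8-cell stage, and Khdc1c had 17.6 and 8.38 FPKM. By mean Khdc1b was 4.91-fold and Khdc1c 1.79-fold lower. Dppa5a, a pluripotency-associated gene, had 1039 and 1285 FPKM, and Khdc1a had 21.6 and 27.9 FPKM. A 2-fold higher median, as in Khdc3 over all blastomeres, was thus not seen in the other genes of the family. Against the 12 4-cell columns deposited first, with a median of 359 FPKM, Khdc3 itself was under 2-fold higher. Tle4, a corepressor of the Groucho family, was 2.32-fold higher at the 8-cell stage, with medians of 11.9 and 27.7 FPKM, while Tle1 and Tle3 had medians of 0, and Tle5 had 0.016 and 0.267 FPKM. Zbed4 had 6.59 and 3.78 FPKM, Zbed5 0.231 and 0.173 FPKM, and Zbed6 0.109 and 0.462 FPKM. Padi1, Padi2 and Padi4 had a median of 0 at both stages, so that of the family members listed at both stages Padi6 was the one with a median above 0.

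Of 15 other maternal-effect genes, 12 had a median above FPKM 1 in at least 1 stage, of which 4 were lower and 1 was higher. Btg4, an adaptor of maternal RNA decay, had a median of 11.6 FPKM and then of 0.114, and Kdm1b, a histone demethylase of oocytes, had 2.70 FPKM and then 0. Npm2 and Dnmt1, the other genes called lower, were 2.11-fold and 3.41-fold lower by median and 1.92-fold and 1.64-fold lower by mean. Trim28, a corepressor that protects imprints, was 2.02-fold higher by median, with 59.8 and 121 FPKM, and 1.91-fold by mean, and Ago2, of the RNA silencing complex, had 5.14 and 9.49 FPKM. Their median difference was -0.28 on the log2(FPKM+1) scale. None of the 6 housekeeping genes was called, with a median difference of 0.32 on the same scale. Gapdh had medians of 29.5 and 51.5 FPKM, Actb of 473 and 809 FPKM, Ubb of 107 and 88.3 FPKM, and Hprt of 1319 and 1285 FPKM.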

How the data were processed

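Single blastomeres were sequenced with Smart-seq2. According to the study's methods and the submitters' processing notes, the authors aligned reads with STAR 2.5.1b to mm10, kept uniquely aligned reads, counted them with HTSeq on Refseq genes and deposited FPKM values, 1 gene table per stage. The gene lengths and totals behind the FPKM are not given in the sources used here. The stage of a table was taken from the study's numbers of genes and blastomeres. Column names match no single sample, so embryo and lineage were not used, and 5 columns of the 8-cell table are named NA.

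Entrez identifiers were matched to RefSeq symbols of GRCm38.p6 (15200 and 15320 found). Levels were summarised as deposited and as log2(FPKM+1), with Python 3.11.15, pandas 2.3.3 and scipy 1.17.1, and copies of exons were searched with BLAST+ 2.17.0. FPKM denominators were estimated from the steps of low values. This step and the 2-fold calls were tested on simulated data. Fragments carry no molecular identifiers, so limits cover counting error only. No 2 columns were identical among 1225 pairs. The members and the lists were chosen with earlier results of these data known. The named genes are all 8 members, the genes of their families and, of each other list, up to 2 with the largest fall and 2 with the largest rise of the median. Npm2 and Dnmt1 were added after their values were seen, since they complete a count of 4. Dppa3, Figla, Prm1 and Prm2 serve as checks. The 10 genes most like the members by rho in both stages are also named. Repeat tables and embryos of other stages were not used here. Alternatives were another pseudocount, rescaling, filters, means, and leaving out blastomeres.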

Additional observations from a re-analysis of the deposited data

How the results depend on the processing

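Khdc3 stayed the member with the highest median after scaling to a common sum and without the gene-poor blastomeres. It was the 1 member called higher under each scaling and filter, without the gene-poor blastomeres and without 1 blastomere at a time, with a log2 difference of 1.24 without the gene-poor blastomeres, of 1.92 to 2.35 without 1 blastomere at a time, of 2.18 after scaling to a common sum, and of 1.06 by stage means. Against the 12 4-cell columns deposited first, with a median of 359 FPKM, it was under 2-fold higher, and against the 12 deposited last, with a median of 0, Tle6 was not lower. Zbed3 was under 2-fold lower by median against the 12 columns deposited first, where its median was 6.11 FPKM. Counted by the share of blastomeres above FPKM 1, 0 members were higher. Khdc3 could not be called by this measure, since its share was already 87.5% at the 4-cell stage. The number of members called lower was 3 with the main settings, 6 without a filter on low values, where the rule also takes in Ooep and Nlrp4f, with an 8-cell median of 0, and Nlrp2, which has a median of 0 at both stages and so is not lower, and 1 by stage means. It was 4 without the gene-poor blastomeres and after scaling to a common sum, where Ooep joined, and 2 by the share of blastomeres, by the mean of log2(FPKM+1) and with a median above FPKM 5. With comparison genes taken by stage mean, a choice made after the data were seen, 6 of 7 members at the 8-cell stage and 2 of 7 at the 4-cell stage had an SD above the median of genes of like level, against 3 of 3 and 3 of 5 by median. Genes of like level lie above their own median as often as below it by construction, and 5 of those 6 members lay between the 59.4 and the 78.4 percentile. Leaving out 1 blastomere at a time gave 3 members lower and 1 higher each time, 2 to 3 members with an SD above genes of like level at either stage, and a median rho of 0.01 to 0.09 at the 4-cell and of -0.004 to 0.08 at the 8-cell stage. Apart from Tle6, which was not lower against the 12 4-cell columns deposited last, no result that had been called changed sign under these alternatives. No paired analysis was made, since no column name matches a replicate number, an embryo or a lineage in the labels. Depth limits the low members, of which 1 fragment is worth 0.01 to 0.35 FPKM.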

Other observations

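Of the oocyte-secreted and zona genes, 2 had a median above FPKM 1. Gdf9, a growth factor of the oocyte, had a median of 4.39 FPKM among 4-cell blastomeres and of 0 among 8-cell ones, and was above FPKM 1 in 13 of 24 and 9 of 26 blastomeres. Zp3, a protein of the zona pellucida, had 83.2 and 45.6 FPKM and was above FPKM 1 in 22 of 24 and in all 26 blastomeres. Genes of the embryo moved in both directions, with 4 of 11 called higher and 3 lower by median. Krt8 and Krt18, keratins of the outer cells, had medians of 0 and then of 43.3 and 29.8 FPKM. Nanog had 21.2 and 7.93 FPKM, and Id2 had 1.44 and 0 FPKM.

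The 10 genes whose pattern over blastomeres was most like the mean of the members, among 5863 genes ranked by the lower of their rho in both stages, were Cog2, P2rx4, Fh1, Mzt2, Itsn2, Tbl3, Ptpn22, Sap130, Trip4 and Srbd1. Cog2 had a rho of 0.65 over the 24 4-cell blastomeres and of 0.64 over the 26 8-cell ones, and Srbd1 had 0.51 and 0.48. These are the top of a ranking of many genes, and the blastomeres share embryos and differ in depth.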
